A study of Rattus norvegicus with 42 samples.

Results

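LOC299282, Serpina3c, Serpina3n and Serpina1 are 4 serpin genes of the rat liver that lie in a cluster on chromosome 6. They were taken by gene name from the table of regions scored for elongating RNA polymerase II, the gene identifiers of those regions were used to find them among the RNA counts, and every glucocorticoid receptor (GR) region centred within 50 kb of one of their transcription start sites (TSS) was added. By name, 3 of the 4 members had polymerase regions, out of 26258 gene names in that table, and these held 15 of its 60999 regions. Serpina3n was named in none of the series' tables used here. It therefore has no pSer2 Pol2 region, RNA count or other measured value under its own name below, and appears only by its RefSeq promoter and position. There were 15 GR regions of 3981 and 3 rows of the 22929 in the RNA counts. The genes were proposed with results of these data in view, and which values they were chosen by is not recorded, so every pSer2 Pol2, GR and RNA value is taken as possibly used and the p-values below are not independent support for the patterns they describe.

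Serpins are serine protease inhibitors that trap their target protease in a covalent complex. Serpina1 encodes alpha-1-antitrypsin, which inhibits neutrophil elastase. Serpina3 genes are related to human alpha-1-antichymotrypsin and have multiplied in rodents into a tandem cluster, which is known for its response in liver to growth hormone and to inflammation, through STAT factors and with glucocorticoids. GR is the nuclear receptor for corticosterone (CORT), the main glucocorticoid of the rat, and binds DNA at glucocorticoid response elements (GREs). Polymerase phosphorylated at serine 2 of its C-terminal domain (pSer2 Pol2) is the elongating form, and its occupancy over a gene is used as a measure of transcription.

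The study asked whether the pattern in which CORT is delivered changes GR binding and transcription in liver. Livers came from adrenalectomised male Sprague Dawley rats infused through the jugular vein with CORT in a cyclodextrin carrier (HBC) or with the carrier alone (VEH). Infusion followed an hourly pulse pattern (PULS) or ran without interruption (CONS). All rats had received dexamethasone, itself a GR agonist, after surgery and a low level of CORT in their drinking water until the day before infusion, and their age is not given in the sources used here. For GR and for pSer2 Pol2 the groups were PULS CORT at the third pulse peak at 140 min (PEAK_140) and at the following nadir at 180 min (NADIR_180), CONS CORT at the same times (CONS_140 and CONS_180), and pulsatile VEH, with 2 libraries per group, each a pool of 6 rats, and the VEH pair taken 1 at each time. RNA was taken at 180 min from 3 samples each of PULS CORT, CONS CORT, PULS VEH and CONS VEH. In the sample labels the numbers of the ChIP groups, and those of RNA with CORT and with VEH, do not interleave. What these numbers stand for is not given in the sources used here. Any difference that follows them cannot be told apart from that of the groups. GR libraries held 2051977 to 6715803 tags, pSer2 Pol2 libraries 4938473 to 9326927 tags and RNA libraries 3956379 to 7777219 reads. ChIP values are log2 normalised tag values, on which a step of 1 is a doubling, and the transformation shrinks regions of few tags towards their average. Chromosome positions are on the rn6 build.

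The RNA was that of liver, with all 6 hepatocyte markers detected and a summed level of 88139 to 143628 CPM (read counts scaled to a common library size by TMM) over the 12 libraries. This sum was 88139 to 132306 CPM in CONS VEH, with a median of 93180 CPM, and 123456 to 126866 CPM in PULS VEH. With CORT it was 125780 to 143628 CPM in PULS and 132631 to 142690 CPM in CONS. CONS VEH is the reference of the CONS response, and the part of its lower median in that response was not tested. In bulk tissue, fewer cells of a type and less RNA per cell cannot be told apart. Of the 6 hepatocyte markers, Tat, Ass1 and Cps1 were called higher with CORT in both patterns, and Alb, Ttr and Apoa1 were not called. No marker of Kupffer cells (5 of 6 tested), endothelium (4 of 5), cholangiocytes (2 of 4), neutrophils (2 of 4) or lymphocytes (3 of 4) was called. The 5 stellate cell markers summed to 140.4 to 194.9 CPM with CORT and 195.3 to 267.8 CPM with VEH, with Dcn alone called, higher in CONS, and the part of cell makeup in the results was not tested. Of the 4 neutrophil markers, Elane, which encodes the elastase that alpha-1-antitrypsin inhibits, and Mpo were at 0 in all 12 libraries and the summed level was at most 2.86 CPM.

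LOC299282 (ENSRNOG00000010478) is the name in these tables for the gene that RefSeq now calls Serpina3l, matched by its gene number. It had 9 pSer2 Pol2 regions over a model that runs on the plus strand from chr6:127941526-128080878, a span of 139352 b. The 3 regions at the upstream end were at 0 in every library. A block of 5 overlapping regions began between 128046780 and 128050311, and is represented here by ENSRNOT00000078064 at chr6:128046780-128056780, which has the highest mean. The remaining region, ENSRNOT00000014073 at chr6:128073344-128080878, lies further downstream. Serpina3c (ENSRNOG00000010410), which encodes a kallikrein-binding serpin, is on the minus strand at chr6:127996165-128003418 and therefore lies inside the span of the LOC299282 model. ChIP tags carry no strand, so transcription of the overlapping models cannot be told apart there. In RefSeq's order on the GRCr8 assembly the genes follow one another as Serpina3c, Serpina3l and Serpina3n, which is the order in which the Serpina3c region, the block of 5 regions and the ENSRNOT00000014073 region lie on rn6. The tables give the last of these the name LOC299282 all the same, and its values are therefore not assigned to Serpina3n. Serpina1 (ENSRNOG00000032669) had 4 regions on the minus strand, of which ENSRNOT00000012577 at chr6:127610296-127620296 had the highest mean.

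The RefSeq promoter table (GRCr8) held 3 of the 4 members by gene number, LOC299282 under the name Serpina3l, Serpina3n and Serpina1. The Serpina3 promoters are shown because the highest GR values near the members were over starts named LOC299282, in the block and at ENSRNOT00000014073. They were also picked because they hold matches to both motifs searched, the GRE core ACANNNTGT and the STAT element TTCNNNGAA. Each sequence runs 5′ to 3′ from 250 b before the RefSeq start to 50 b after it on the plus strand, and the capitals mark the STAT element first and the GRE core second.
LOC299282 (Serpina3l): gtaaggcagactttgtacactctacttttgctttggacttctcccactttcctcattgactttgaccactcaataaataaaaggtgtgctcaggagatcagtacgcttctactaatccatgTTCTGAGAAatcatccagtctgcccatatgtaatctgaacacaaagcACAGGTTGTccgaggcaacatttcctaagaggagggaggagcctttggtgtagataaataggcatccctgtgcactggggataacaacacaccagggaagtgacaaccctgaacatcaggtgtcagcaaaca
Serpina3n: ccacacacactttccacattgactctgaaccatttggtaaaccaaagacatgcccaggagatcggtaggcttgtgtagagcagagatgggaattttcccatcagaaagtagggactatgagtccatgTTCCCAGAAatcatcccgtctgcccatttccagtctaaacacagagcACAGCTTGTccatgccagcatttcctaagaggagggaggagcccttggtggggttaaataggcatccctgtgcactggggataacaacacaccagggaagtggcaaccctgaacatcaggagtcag
Both motifs read the same on either strand, and the matches do not overlap. The GRE core began 82 b upstream of the start of LOC299282 and 76 b upstream of that of Serpina3n, with the STAT element a further 47 b upstream in both. The promoters were identical at 218 of 257 aligned bases (84.8%). Of all 33469 promoters of the same length, 6.9% held the GRE core, 8.9% the STAT element and 0.68% both. The Serpina3 promoters were picked for holding both and are alike in sequence, so nothing is read from these shares. The Serpina1 promoter held neither set of letters in this window, which lies at the outermost RefSeq start of the gene. A match is a description of the letters and not evidence of a bound site.

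GR occupancy at a start in the LOC299282 block and at that of ENSRNOT00000014073 was higher in PEAK_140 than in VEH. At the region 29 b upstream of a start within the block, that of ENSRNOT00000084685 (chr6:128047748-128048392), it was 3.56 and 2.81 in VEH, 7.23 and 7.10 in PEAK_140, 3.78 and 0.06 in NADIR_180, 6.21 and 6.10 in CONS_140, and 6.88 and 6.27 in CONS_180. All 6 libraries of PEAK_140, CONS_140 and CONS_180 lay above both VEH libraries, and of the NADIR_180 libraries 1 lay above and 1 below both. At the region 94 b upstream of the ENSRNOT00000014073 start (chr6:128072937-128073562), the values were 1.55 and 1.30 in VEH, 7.56 and 7.01 in PEAK_140, 4.31 and 4.26 in NADIR_180, 6.72 and 6.44 in CONS_140, and 7.18 and 5.98 in CONS_180. Here every CORT library exceeded VEH, NADIR_180 included. The difference of PEAK_140 from VEH was 3.98 ± 0.98 (SE, n = 2 per group) at the first start and 5.86 ± 0.45 at the second, and that of NADIR_180 from VEH was -1.26 ± 0.98 and 2.86 ± 0.45.

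At the start of Serpina3c the VEH libraries overlapped those of the start in the LOC299282 block. At 63 b upstream (chr6:128003146-128003816) the values were 4.42 and 2.58 in VEH, 5.79 and 5.55 in PEAK_140, 3.75 and 1.07 in NADIR_180, 4.84 and -0.56 in CONS_140, and 5.46 and 4.82 in CONS_180. PEAK_140 and CONS_180 lay above both VEH libraries, whereas the CONS_140 libraries lay far apart, 1 above and 1 below VEH. This was the only region of the 15 that overlapped a peak on the VEH list. At the inner start of Serpina1, 178 b upstream of ENSRNOT00000012577 (chr6:127620161-127620786), the values were 0.71 and 0.49 in VEH, 5.09 and 4.97 in PEAK_140, 3.26 and -0.38 in NADIR_180, 4.34 and 2.83 in CONS_140, and 3.47 and 3.83 in CONS_180. PEAK_140 was above every other library at this start.

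**Figure D1:**
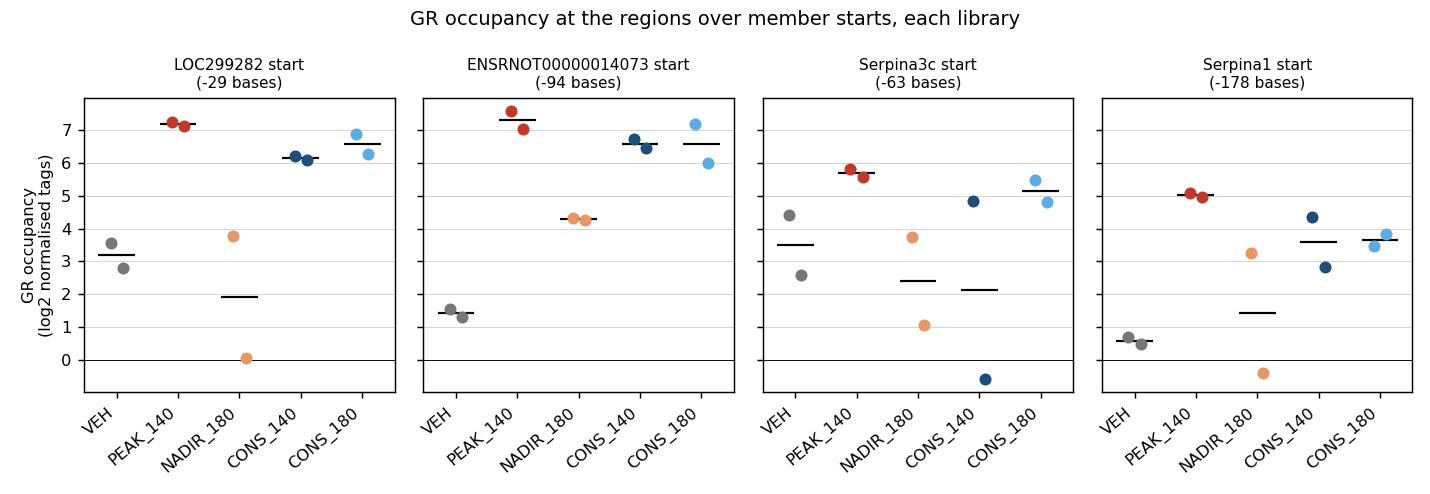
GR occupancy (log2 normalised tags, vertical axis) in each library of the 5 groups at the GR regions over 4 member starts, with the distance to the start in bases. Points are libraries and bars the mean of 2. Over the start in the LOC299282 block and that of ENSRNOT00000014073, PEAK_140 libraries sit at 7.01 or more and VEH libraries at 3.56 or less.

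Away from the starts, 5 regions had VEH values of 0.75 or less and were higher in both PEAK_140 libraries. At 18064 b upstream of Serpina3c (chr6:128021156-128021809), inside an intron of a LOC299282 transcript, the values were -0.62 and -0.82 in VEH, 5.70 and 5.81 in PEAK_140, 3.28 and -0.39 in NADIR_180, 3.71 and 3.18 in CONS_140, and 5.87 and 5.12 in CONS_180. At 2020 b upstream of the ENSRNOT00000014073 start (chr6:128071126-128071521) they were -0.63 and -0.82 in VEH, 5.66 and 5.69 in PEAK_140, 1.98 and 3.11 in NADIR_180, 3.57 and 2.09 in CONS_140, and 4.77 and 4.06 in CONS_180. In an intron of Serpina1, 3497 b downstream of an outer start (chr6:127626887-127627587), they were 0.75 and -0.68 in VEH, 6.64 and 5.80 in PEAK_140, 2.67 and 1.05 in NADIR_180, 5.38 and 4.58 in CONS_140, and 5.30 and 5.36 in CONS_180. In these 3 regions PEAK_140, CONS_140 and CONS_180 did not overlap VEH. The region 6728 b upstream of the outermost Serpina1 start was at 3.88 and 3.42 in PEAK_140 and overlapped a peak on the PEAK_140 list alone. The region 7846 b upstream of that start was at -0.94 and -1.11 in VEH, 3.26 and 2.16 in PEAK_140, and 4.10 and 1.87 in CONS_180.

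Other GR regions lay inside genes, as did some of those above, or at 3′ ends, and did not share one order of groups. At the 3′ end of Serpina3c (chr6:127995324-127995949) the values were 4.17 and 4.00 in VEH, 2.11 and -0.36 in PEAK_140, 0.69 and -0.57 in NADIR_180, 3.47 and -0.90 in CONS_140, and 4.22 and 4.28 in CONS_180. At 4338 b into LOC299282 (chr6:128054336-128054961), they were 1.67 and 2.46 in VEH, -0.65 and -0.45 in PEAK_140, 1.75 and -0.65 in NADIR_180, 2.95 and -0.95 in CONS_140, and 3.34 and 3.63 in CONS_180. In both regions PEAK_140 lay below both VEH libraries and CONS_180 above them, the latter by 0.17 ± 1.36 (SE) and 1.42 ± 1.26. Both overlapped a peak on the CONS_180 list alone, as did the regions past the 3′ ends of Serpina1 and of ENSRNOT00000014073 and the region 7846 b upstream of the outermost Serpina1 start. The region at the 3′ end of the ENSRNOT00000087017 transcript of LOC299282, 5458 b from the nearest start, was at 3.73 and 1.67 in VEH, 4.15 and 3.79 in PEAK_140, and 4.99 and 5.19 in CONS_180. There PEAK_140 lay above both VEH libraries.

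Over all 15 regions, 10 overlapped a PEAK_140 peak, 12 a CONS_180 peak, 3 a CONS_140 peak, 1 a VEH peak and 0 a NADIR_180 peak, from lists of 3210, 2428, 1723, 118 and 73 peaks. The regions are in the table because a peak was called in at least 1 group, so differences of GR between groups are given as description, no p is printed, and the counts of regions past the thresholds below stand beside those of all regions with nothing read from them. Between PEAK_140 and VEH, 9 of the 15 were higher past the thresholds used across all regions (adjusted p under 0.05 and more than 1.5-fold), where 78.6% of all 3981 regions were. Their median difference was 3.73, below the 4.17 of all regions, and -0.88 after subtraction of the median over all regions from every library. Higher past the thresholds were 2 of 15 in NADIR_180 (7.44% of all regions), 6 in CONS_140 (64.7%) and 8 in CONS_180 (67.9%), each against VEH. From NADIR_180, 7 were higher in PEAK_140 (68.8%) and 7 in CONS_180 (49.6%), and the difference of time effects defined below was higher in 7 (43.6%). Between CONS_140 and CONS_180 the direction rested on 1 library. The mean of CONS_140 was below that of CONS_180 in all 15, with a median difference of -1.46 where all regions had 0.15, but the second CONS_140 library was at or below 0 in 8 of the 15, and without it, an omission chosen after seeing the data, 8 were lower and the median was -0.30. The second NADIR_180 library was at or below 0 in 9 of the 15, against 2 for the first. None of the 15 passed the thresholds in that comparison, nor did any other region (0%), and none did between PEAK_140 and CONS_140 (0.0502% of all).

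**Figure D2:**
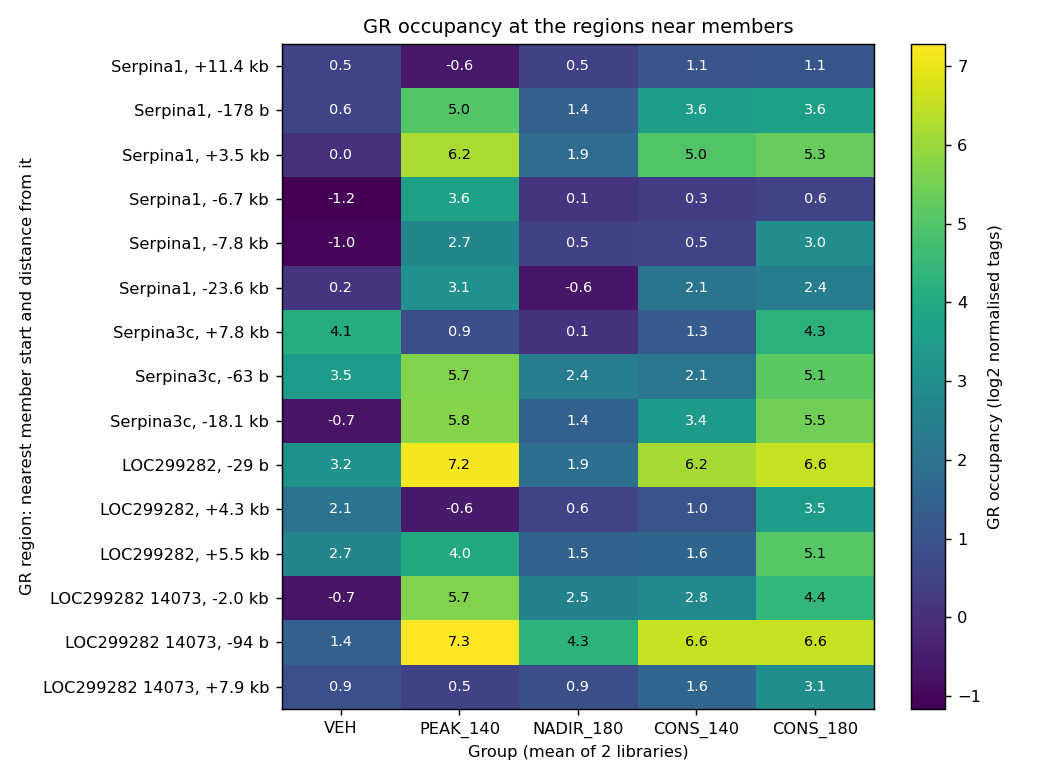
Mean GR occupancy of 2 libraries (log2 normalised tags, colour and printed value) in the 15 GR regions, ordered along the chromosome and named by the nearest member start and the distance from it. The regions over a start in the LOC299282 block and over that of ENSRNOT00000014073 reach 7.2 and 7.3 in PEAK_140. The region at the 3′ end of Serpina3c is at 4.1 in VEH against 0.9 in PEAK_140.

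pSer2 Pol2 occupancy of LOC299282 and Serpina3c was highest in PEAK_140 and CONS_180, intermediate in VEH and lowest in NADIR_180 and CONS_140. In LOC299282 it was 12.20 and 12.18 in VEH, 13.03 and 12.66 in PEAK_140, 11.10 and 10.42 in NADIR_180, 11.16 and 11.29 in CONS_140, and 13.07 and 13.02 in CONS_180. In Serpina3c it was 11.99 and 12.03 in VEH, 12.74 and 12.52 in PEAK_140, 11.01 and 10.37 in NADIR_180, 10.90 and 11.14 in CONS_140, and 12.78 and 12.77 in CONS_180. In both genes the PEAK_140 and CONS_180 libraries lay above VEH, and the NADIR_180 and CONS_140 libraries below it, without overlap. The 2 genes had a correlation of 0.998 over the 10 libraries, which they share, and as copies of one family their reads may map to one another. The other 4 regions of the LOC299282 block, which share most of their bases with the first, had group means in the same order, and the second Serpina3c region covers the same interval.

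In Serpina1 and the ENSRNOT00000014073 region, occupancy in PEAK_140 and CONS_180 also lay above VEH, but NADIR_180 did not lie below it. In Serpina1 occupancy was 12.19 and 11.98 in VEH, 12.92 and 12.75 in PEAK_140, 11.90 and 12.10 in NADIR_180, 11.99 and 11.83 in CONS_140, and 12.74 and 12.50 in CONS_180. In ENSRNOT00000014073 it was 11.05 and 10.87 in VEH, 12.37 and 12.44 in PEAK_140, 10.87 and 11.39 in NADIR_180, 11.48 and 11.30 in CONS_140, and 12.07 and 11.82 in CONS_180. NADIR_180 overlapped VEH in both, and CONS_140 overlapped VEH in Serpina1 and lay above it in ENSRNOT00000014073. The 3 outer regions of Serpina1 were far lower, with means over the 10 libraries of 7.05 and 5.47, the latter for a pair that covers one interval, and their values in PEAK_140, NADIR_180 and CONS_140 overlapped VEH or lay within its range, while those in CONS_180 lay above it.

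**Figure D3:**
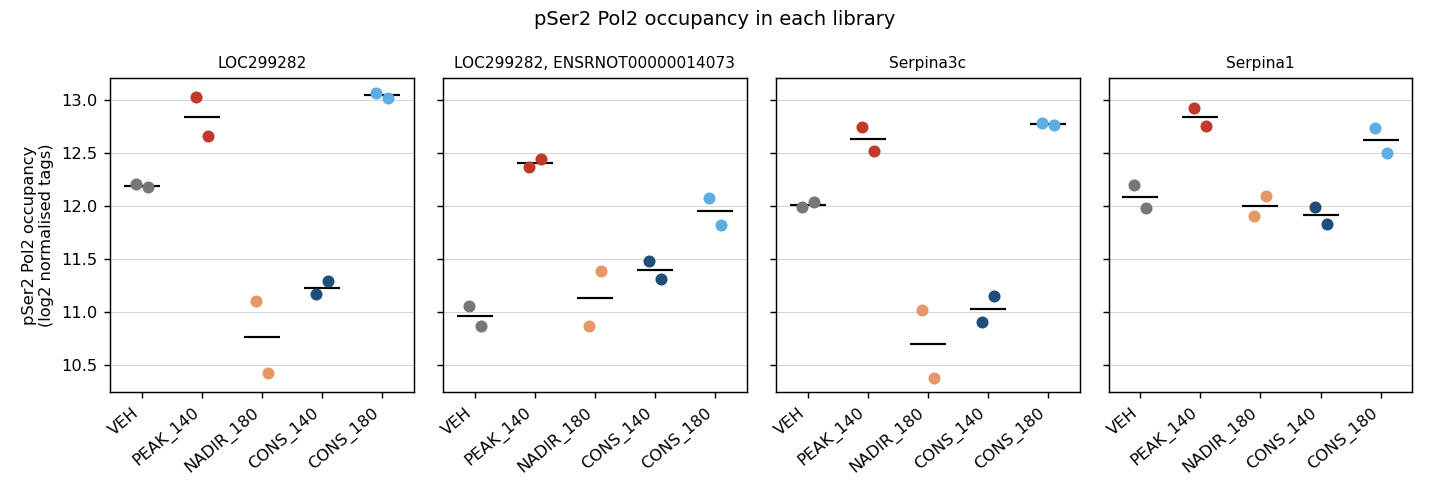
pSer2 Pol2 occupancy (log2 normalised tags, vertical axis) in each library of the 5 groups for the LOC299282 block, the ENSRNOT00000014073 region, Serpina3c and Serpina1. Points are libraries and bars the mean of 2, and NADIR_180 and CONS_140 sit below VEH in LOC299282 and Serpina3c but near it in Serpina1.

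The pulsatile response between peak and nadir passed the test in LOC299282 and Serpina3c. From NADIR_180 to PEAK_140, occupancy rose 4.23-fold in LOC299282 (log2 difference 2.08 ± 0.26 SE, limma adjusted p = 0.00465) and 3.83-fold in Serpina3c (1.94 ± 0.25, adjusted p = 0.00626), with n = 2 per group. These were 2 of the 3 members, where 0.48% of the 38315 regions with tags were called and 0.243% were called higher. With the replicate number as a block, the limma adjusted p was 0.0256 in LOC299282 and 0.0354 in Serpina3c. Serpina1 differed by 0.84 ± 0.21 with a limma adjusted p of 0.19, and ENSRNOT00000014073 by 1.28 ± 0.24 with a limma adjusted p of 0.0539. Both calls were lost in a fit of only the libraries compared and without the first PEAK_140 or the first NADIR_180 library, and that of LOC299282 also without the second CONS_140 library. Serpina1 was called too after median centring (limma adjusted p = 0.0142) and over regions above the median of means (limma adjusted p = 0.000531), of 16 alternatives with adjusted p-values up to 0.852.

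The constant infusion gave the opposite order of times. Occupancy at CONS_140 was below CONS_180 by a log2 difference of -1.82 ± 0.26 in LOC299282, -1.75 ± 0.25 in Serpina3c and -0.71 ± 0.21 in Serpina1, with limma adjusted p-values of 0.091, 0.091 and 0.629. None of the 3 members was called, and neither was any of the 38315 regions (0%), although all 3 members and 2.96% of all regions had an unadjusted p under 0.05. With any 1 library left out, the differences stayed between -1.88 and -1.76 in LOC299282, -1.87 and -1.63 in Serpina3c, and -0.83 and -0.59 in Serpina1. Without the second CONS_140 library the median difference over all regions moved from 0.17 to 0.45. The difference of the time effects, that is PEAK_140 minus NADIR_180 set against CONS_140 minus CONS_180, was 3.90 ± 0.36 in LOC299282 and 3.69 ± 0.35 in Serpina3c, each with a limma adjusted p of 0.00187. With the replicate number as a block, the limma adjusted p was 0.0226 in LOC299282 and 0.0303 in Serpina3c. The difference of the time effects was called in these 2 of 3 members, in all 5 regions of the LOC299282 block and in both Serpina3c regions, where 22 regions or 0.0574% of all were called and 14 (0.0365%) were called higher. Those 14 include the members' own regions, which overlap within the block and cover one interval in Serpina3c. The shares given for PEAK_140 and for CONS_180 against NADIR_180 include these regions too. In Serpina1 the difference of the time effects was 1.55 ± 0.30 (limma adjusted p = 0.115) and in ENSRNOT00000014073 it was 1.83 ± 0.35 (limma adjusted p = 0.111). The calls of LOC299282 and Serpina3c were lost without the first CONS_140 library or without either CONS_180 library. Serpina1 was called after median centring and over regions above the median of means. With any 1 library left out, its difference of the time effects stayed between 1.43 and 1.67.

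At the same clock time the 2 patterns of infusion stood apart. At 140 min PEAK_140 was above CONS_140 by 1.62 ± 0.26 in LOC299282, 1.61 ± 0.25 in Serpina3c and 0.93 ± 0.21 in Serpina1, whereas the median over all regions was -0.26. None of the 3 was called (limma adjusted p = 0.0662, 0.0662 and 0.14), where 0.0261% of all regions were, and all 3 had an unadjusted p under 0.05. After median centring of the libraries, which moved the median of all regions to -0.03, all 3 were called. With the replicate number as a block, LOC299282 (adjusted p = 0.0418) and Serpina3c (adjusted p = 0.0426) were called by limma. At 180 min CONS_180 was above NADIR_180 by 2.29 ± 0.26 in LOC299282, a 4.88-fold rise (limma adjusted p = 0.00426), and by 2.08 ± 0.25 in Serpina3c, a 4.23-fold rise (limma adjusted p = 0.00639). These were 2 of 3 members, where 0.17% of all regions were called and 0.164% were called higher, and with the block the limma adjusted p was 0.032 in LOC299282 and 0.0559 in Serpina3c. Both calls were lost in a fit of only the libraries compared and without any 1 of the CONS_140 or CONS_180 libraries. In Serpina1 the difference was 0.62 ± 0.21 (limma adjusted p = 1), called only over regions above the median of means (adjusted p = 0.0104).

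Against VEH, none of the 3 members was called by limma in any CORT group by its region of highest mean, where 0.989% of regions were called in PEAK_140, 0.00522% in NADIR_180, 0.788% in CONS_140 and 0.214% in CONS_180. These 4 comparisons share the same VEH libraries. An unadjusted p under 0.05 was reached by 3 members in PEAK_140, 2 in NADIR_180, 2 in CONS_140 and 3 in CONS_180. In LOC299282 the log2 differences were 0.65 ± 0.26 in PEAK_140, -1.43 ± 0.26 in NADIR_180, -0.97 ± 0.26 in CONS_140 and 0.85 ± 0.26 in CONS_180. In Serpina3c they were 0.62 ± 0.25, -1.32 ± 0.25, -0.99 ± 0.25 and 0.76 ± 0.25 in the same order. In Serpina1 they were 0.75 ± 0.21, -0.09 ± 0.21, -0.18 ± 0.21 and 0.53 ± 0.21. Over all regions the median difference was -0.05, 0.01, 0.15 and 0.01.

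The ENSRNOT00000014073 region was called against VEH in PEAK_140, where it rose 2.72-fold (log2 difference 1.44 ± 0.24 SE, limma adjusted p = 0.0176). It was the only region of the members called against VEH. The call was lost in 11 of 14 alternatives, namely in a fit of only the libraries compared and without any 1 of the 10 libraries, with limma adjusted p-values up to 0.253 and a log2 difference of 1.35 to 1.54. Its differences were 0.17 ± 0.24 in NADIR_180, 0.43 ± 0.24 in CONS_140 and 0.99 ± 0.24 in CONS_180, none of them called. GR at its start, given above, was 5.86 higher than VEH in PEAK_140 and 2.86 higher in NADIR_180.

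**Figure D4:**
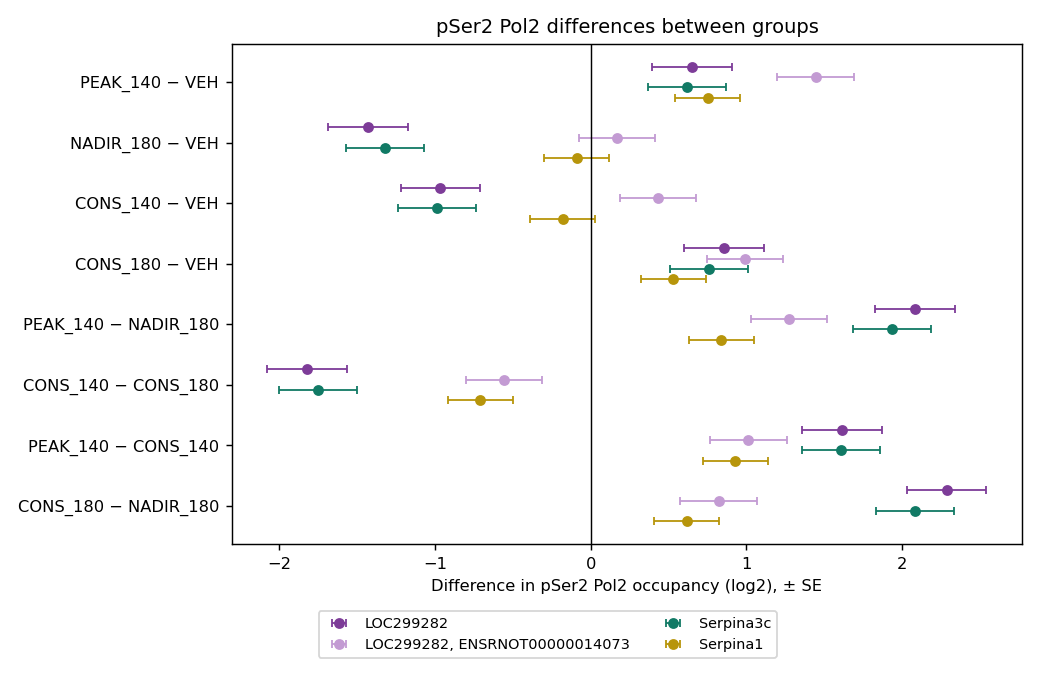
Differences in pSer2 Pol2 occupancy between groups (log2, horizontal axis) for the LOC299282 block, the ENSRNOT00000014073 region, Serpina3c and Serpina1, as fitted value ± SE from a limma model with 2 libraries per group. LOC299282 and Serpina3c lie near -1.4 and -1.3 for NADIR_180 minus VEH, where Serpina1 lies at -0.09 and ENSRNOT00000014073 at 0.17.

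The genes whose pSer2 Pol2 pattern was most like that of LOC299282 over the 10 libraries, by Pearson correlation among 8250 genes with means above the median, were Gckr, the glucokinase regulatory protein (r = 0.961), Hacl1, a peroxisomal lyase of fatty acid oxidation (r = 0.898), and Chka, choline kinase (r = 0.893). The same 3 genes came first for Serpina3c, at 0.953, 0.887 and 0.881. For Serpina1 they were Hacl1 (r = 0.911), Slurp1 (r = 0.88) and Il6st (r = 0.878), the signalling chain of the interleukin-6 receptor. In Gckr occupancy was 8.27 and 7.89 in VEH, 8.32 and 8.22 in PEAK_140, 7.20 and 6.65 in NADIR_180, 7.39 and 7.32 in CONS_140, and 8.62 and 8.17 in CONS_180. NADIR_180 and CONS_140 lay below VEH in Gckr too. These genes share their libraries and scaling with the members.

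LOC299282 RNA at 180 min was higher with CORT in both patterns. In PULS VEH it stood at 2383, 3038 and 3441 CPM and in PULS CORT at 4668, 4377 and 5053 CPM. In CONS VEH it stood at 2700, 3042 and 3197 CPM and in CONS CORT at 3597, 3790 and 5490 CPM. All 6 CORT libraries were above all 6 VEH libraries. The third CONS CORT library was the highest of the 12. The count is 1 value for the whole gene model, which includes the ENSRNOT00000014073 end, and how reads shared with other Serpina3 copies were treated is not given in the sources used here.

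The PULS response of LOC299282 was 1.59-fold (log2 0.67 ± 0.17 SE, n = 3 per group, edgeR adjusted p = 0.0293), which made it 1 of 2 testable members called, where 4.23% of the 14092 genes tested were called and 1.79% were called higher. The call was lost without any 1 of 5 of the 6 libraries compared, the third PULS VEH library being the exception, with adjusted p-values up to 0.115. The CONS response was 1.44-fold (0.53 ± 0.17, edgeR adjusted p = 0.051), short of both thresholds, where 9.2% of genes were called and 4.45% called higher and where none of 2 members was called by edgeR or by DESeq2 and 1 had an unadjusted p under 0.05. Without the first or the second CONS CORT library LOC299282 was called. The CONS response differed from the PULS response by -0.14 ± 0.24 (edgeR adjusted p = 0.856), and 0.0284% of genes were called in that comparison.

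Serpina1 RNA showed no difference of that size. It stood at 6087, 5656 and 6480 CPM in PULS VEH, 6954, 6197 and 6619 CPM in PULS CORT, 6717, 7460 and 6578 CPM in CONS VEH, and 5801, 5814 and 6490 CPM in CONS CORT. PULS CORT overlapped PULS VEH, and CONS CORT lay wholly below CONS VEH. The log2 differences were 0.12 ± 0.12 for PULS (edgeR adjusted p = 0.638) and -0.20 ± 0.12 for CONS (edgeR adjusted p = 0.334), and the difference between these responses was -0.32 ± 0.17 (edgeR adjusted p = 0.461).

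The 2 CORT patterns compared directly differed by -0.13 ± 0.17 in LOC299282 (edgeR adjusted p = 0.843) and by -0.13 ± 0.12 in Serpina1 (edgeR adjusted p = 0.761). Neither member was called there, nor between CONS VEH and PULS VEH, where the differences were 0.01 ± 0.17 and 0.18 ± 0.12. No unadjusted p fell under 0.05 for either gene in these comparisons or in that of the responses, and DESeq2 called neither. The background was 0.887% of genes called between the CORT patterns and 0% between the VEH patterns.

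Serpina3c had 0 reads in all 12 RNA libraries, although its pSer2 Pol2 values were close to those of LOC299282. Over 64590777 reads a count of 0 allows up to 3 reads, or 0.0464 CPM, which covers counting error only. Its exons lie within the span of the LOC299282 model, and the strand setting of the count is not given in the sources used here, so the count of 0 is not read as absence of its RNA.

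**Figure D5:**
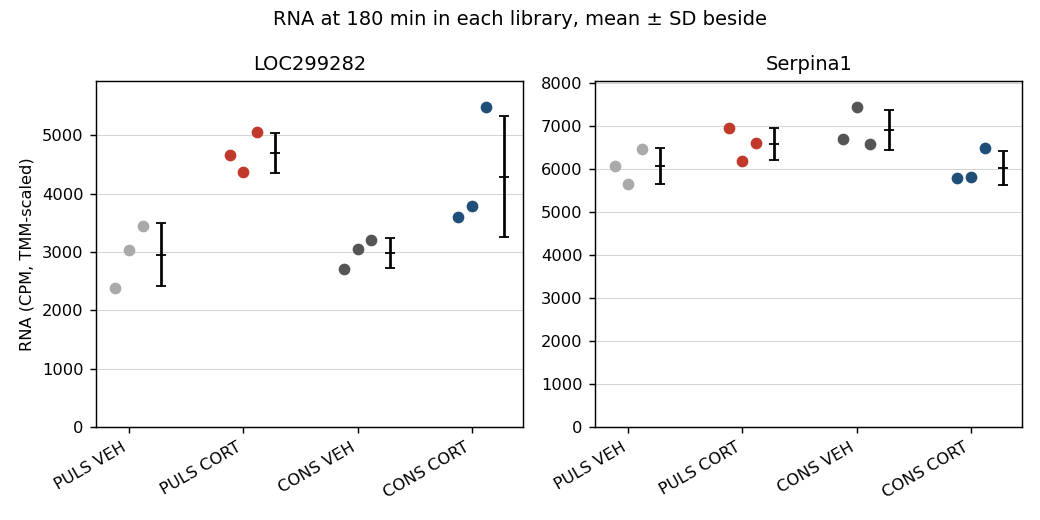
RNA of LOC299282 and Serpina1 at 180 min (CPM after TMM scaling, vertical axis from 0) in the 3 libraries of each of 4 groups, with the mean ± SD beside the points. LOC299282 lies between 3597 and 5490 CPM with CORT and between 2383 and 3441 CPM with VEH, and Serpina1 groups overlap in the PULS pattern.

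Of the 38 other genes named as serpins, 22 had tags in a pSer2 Pol2 region. The only one called there was Serpina6, which encodes the plasma carrier of corticosteroids and has its start 86049 b from a member start. Its occupancy was 8.70 and 8.26 in VEH, 4.90 and 5.98 in PEAK_140, 7.50 and 7.37 in NADIR_180, 7.03 and 5.75 in CONS_140, and 5.48 and 4.30 in CONS_180. All CORT libraries were below VEH. It fell by 3.04 ± 0.53 in PEAK_140 (limma adjusted p = 0.0213) and by 3.59 ± 0.53 in CONS_180 (limma adjusted p = 0.0236), where 0.624% and 0.0574% of regions were called lower. The first call was lost in 12 of 14 alternatives, any 1 library left out included, and the second in 10 of 14, where it held without either PEAK_140 library, while the log2 difference in PEAK_140 stayed between -3.58 and -2.50. The other serpins within 1 Mb of a member were Serpina11, Serpina9, Serpina1f, Serpina16, Serpina12, Serpina4, Serpina10, Serpina3m and Serpina5, and none of these was called. Serpina9 and Serpina10 were at 0 and not tested. Serpina3m, another gene of the Serpina3 group, stood between 9.05 and 9.66 in all 10 libraries, and Serpina11 between 6.41 and 7.67.

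In RNA, 23 of the 38 other serpins were tested and none was called for PULS. For CONS, Serpina12 was called higher and Serpinb8 and Serpinb9 lower. Serpina12, which encodes vaspin, was listed at 0 in all 6 VEH libraries and stood at 0.247 to 0.609 CPM in the 6 CORT libraries, a few reads each. Serpinb8 fell by 1.38 ± 0.28 (edgeR adjusted p = 0.00332) and Serpinb9, which inhibits granzyme B, by 0.81 ± 0.24 (edgeR adjusted p = 0.0333). The Serpinb8 call held in all 17 alternatives, the Serpinb9 call was lost without any 1 of the 3 CONS CORT libraries or without the CONS VEH replicate 1 or 3, and the Serpina12 call was lost without any 1 CONS VEH library, with no read filter and with a replicate block, had no adjusted p in DESeq2, and could not be tested where its reads fell under the filter.

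Of 17 regulators of acute-phase and hepatocyte genes, 16 had pSer2 Pol2 tags. Il6r, the ligand-binding chain of the interleukin-6 receptor, rose in PEAK_140 (2.02 ± 0.35, limma adjusted p = 0.0196), CONS_140 (2.58 ± 0.35, limma adjusted p = 0.00623) and CONS_180 (2.05 ± 0.35, limma adjusted p = 0.0492) against VEH. Cebpb, a transcription factor of the acute-phase response, rose in CONS_140 (3.88 ± 0.68, limma adjusted p = 0.0226). Of 14 alternatives, the Il6r call was lost in 10 for PEAK_140, 5 for CONS_140 and 12 for CONS_180, and the Cebpb call in 9, each of them in a fit of only the libraries compared and without the second VEH library. The Il6r log2 difference stayed between 1.62 and 2.98 in all of them and that of Cebpb between 3.51 and 4.25. None of the other 14 was called in any group. Il6r at CONS_140 was 10.11 and 9.60 against 7.69 and 6.87 in VEH. Any link between the regulators and the members was not tested.

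Of the 12 regulators tested in RNA, Il6r rose for PULS (0.90 ± 0.16, edgeR adjusted p = 0.00386) and for CONS (1.72 ± 0.16, edgeR adjusted p = 3.32e-06) and was higher in CONS CORT than in PULS CORT (0.76 ± 0.16, edgeR adjusted p = 0.0316). Il6st rose for CONS (0.90 ± 0.17, edgeR adjusted p = 0.00194). Ghr, the growth hormone receptor, fell by 1.17 ± 0.15 for PULS (edgeR adjusted p = 0.000217) and by 1.02 ± 0.15 for CONS (edgeR adjusted p = 0.000221). These calls against VEH held in all 17 alternatives, and that of Il6r between the CORT patterns was lost without any 1 of the 6 CORT libraries. Ghr stood at 1654 to 2676 CPM in the 6 VEH libraries and at 885 to 1042 CPM in the 6 CORT libraries. Of the 6 proteases taken as serpin targets, 3 had pSer2 Pol2 tags and none was called, and none passed the read filter in RNA.

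The genes whose RNA was most like that of LOC299282 over the 12 libraries, among 7303 genes at a mean of at least 10 CPM, were Gspt1 (r = 0.958), Tex10 (r = 0.915) and Wdr36 (r = 0.91). For Serpina1 they were Lsr (r = 0.892), Aph1a (r = 0.86) and Hyal1 (r = 0.849). None of these 6 was among the genes most like the members in pSer2 Pol2, where only genes with means above the median were searched. Gspt1 was at 0 in all 10 pSer2 Pol2 libraries and could not appear there, so the lack of overlap is not read as a result.

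Within the 50 kb limit, the GR regions farthest from a member start were at 18064 b from Serpina3c and at 23642 b from Serpina1. The latter, in an intron of Serpina11, had values of -0.76 and 1.06 in VEH and 3.70 and 2.54 in PEAK_140. The next regions, beyond the limit, lay at 68034 b and 76040 b from Serpina1 and nearest to Serpina12. In that order, their values were -0.53 and -0.73 in VEH against 5.92 and 5.99 in PEAK_140, and -0.65 and -0.84 in VEH against 5.21 and 4.74 in PEAK_140.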

How the data were processed

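GR ChIP-Seq, pSer2 Pol2 ChIP-Seq and RNA-Seq of rat liver were analysed from the tables of the series. For both ChIP assays the authors trimmed reads with Trimmomatic 0.36, aligned them to rn6 with bowtie2, removed duplicates, counted tags with HOMER 4.9.1, subtracted input tags and deposited log2 values per region and library, with shrinkage where tags are few. Whether GR values are relative to tags in binding regions or to all tags is stated both ways. pSer2 Pol2 regions end at most 10000 b from the TSS. The authors deposited positions of GR peaks per group, and RNA counts per gene made with STAR and featureCounts 1.6.2. Further deposited tables of the authors' own comparisons (fold changes and p-values) were not used. Gene names for the counts came from the pSer2 Pol2 table.

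The log2 ChIP values of all 10 libraries of an assay entered 1 model (limma 3.58.1, R 4.3.3, variance trend), over 38315 pSer2 Pol2 regions with tags and 3981 GR regions. A gene was represented by its region with the highest mean. For RNA, edgeR 4.0.16 (TMM, quasi-likelihood test) was run on the counts of 14092 genes whose summed reads exceeded 10. Calls required an adjusted p under 0.05 (Benjamini-Hochberg, over all features of an assay) and a fold change above 1.5. Peaks overlapped a region by at least 1 b. Nothing states that RNA samples beyond their labels are separate animals, so p-values measure the spread between libraries. Replicate number served as a block in an alternative fit of the 8 CORT pSer2 Pol2 libraries. There, libraries of one number deviated together in all 6 pairs of groups (r = 0.157 to 0.478), more than in GR (-0.03 to 0.07) or RNA (-0.09 to 0.14). These pairs share groups and are not independent, and no source used here states that the numbers mark a pairing. Members, lists of genes (other serpins, regulators, proteases, cell markers), motifs and the rule for named genes (list members called against VEH, serpins within 1 Mb, the 3 genes most like each member) were chosen with earlier results of these data known. The fits were tested on simulated data. Alternatives were no variance trend, only the libraries compared, median centring, the called region of greatest fold change, only regions whose mean exceeds the median, a replicate block, DESeq2 1.42.0, RLE factors, no read filter and leaving out each library.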

Additional observations from a re-analysis of the deposited data

Results flagged for a closer look

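The effect of time differed between pulsatile and constant infusion in pSer2 Pol2 occupancy of LOC299282, by 3.90 on the log2 scale, and of Serpina3c, by 3.69, in a test of that difference in limma (adjusted p = 0.00187 in each). With the replicate number as a block over the CORT libraries, the limma adjusted p was 0.0226 in LOC299282 and 0.0303 in Serpina3c. In both genes occupancy was higher at 140 min than at 180 min in the pulsatile pattern and lower at 140 min than at 180 min in the constant one. The difference within the constant pattern was not called (limma adjusted p = 0.091 in each). Serpina3c lies inside the LOC299282 model and their values had a correlation of 0.998, so the genes are not separate observations. They may have been chosen by these values, so the p-values are not independent support. The values of the libraries, and the single libraries on which the calls depend, are given above.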

How the results depend on the processing

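Calls among the 3 members in pSer2 Pol2 depended on the choice of libraries and scaling. After median centring of the libraries, 1 member was called in PEAK_140 and 2 in CONS_140 against VEH, 2 between CONS_140 and CONS_180, and 3 between PEAK_140 and CONS_140, where 0 were called in each without centring. With only the regions above the median of means, 1 was called in PEAK_140, 2 in NADIR_180, 2 in CONS_140 and 2 in CONS_180 against VEH, 3 between CONS_140 and CONS_180 and 3 between PEAK_140 and CONS_140. Serpina1 then joined the 2 Serpina3 members as called between PEAK_140 and NADIR_180, between CONS_180 and NADIR_180 and in the difference of time effects, as it did in the first and last of these after centring. With only the libraries of the groups compared, 0 instead of 2 were called between PEAK_140 and NADIR_180 and 0 instead of 2 between CONS_180 and NADIR_180, and 2 instead of 0 in CONS_180 against VEH. Taking the called region of greatest fold change gave 1 in PEAK_140 and turned the Serpina1 difference of NADIR_180 from VEH from -0.09 to 0.76. The replicate block over the CORT libraries gave 2 called between PEAK_140 and CONS_140 and 1 between CONS_180 and NADIR_180, and changed no other count of members called. Leaving out 1 library changed the number of members called for CONS_140 against VEH, for each comparison between CORT groups and for the difference of time effects. Without the second CONS_140 library the median over all regions moved from 0.15 to 0.42 for CONS_140 against VEH. It moved from 0.17 to 0.45 for CONS_140 against CONS_180 and from -0.26 to -0.54 for PEAK_140 against CONS_140. For the difference of time effects it moved from -0.30 to -0.57. Calls gained without that library are therefore not read as a result about the members. With 1 library left out, the Serpina1 difference of NADIR_180 from VEH ranged from -0.19 to 0.016. In RNA, leaving out 1 library gave 0 to 1 called for PULS and 0 to 1 for CONS against VEH, and the LOC299282 difference of CONS VEH from PULS VEH ranged from -0.12 to 0.13, crossing 0 without PULS VEH replicate 1 (-0.12), CONS VEH replicate 2 (-0.01) or replicate 3 (-0.05). The median GR difference of PEAK_140 from VEH near the members was 3.73, 3.19 to 4.04 with 1 library left out, and -0.88 with centring. The causes of these changes were not tested. In RNA, libraries of one replicate number deviated little together (r = -0.09 to 0.14), and a block on these numbers changed no call of a member. For the difference between RNA responses, the fit of only the groups compared is the full fit. Where a replicate was left out, the remaining library of a ChIP group was assumed to vary like the other groups. With 2 pooled libraries per ChIP group, differences near the spread of a pair could not be resolved.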
